A study of Mus musculus with 2 samples.

Results

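Cells of the mouse mandibular arch at E9.5 that carry transcripts of Sox10 were described across all genes. A cell was taken as Sox10-positive when it held at least 1 unique molecular identifier (UMI) of Sox10 and none of Epcam, an epithelial adhesion gene, or Cdh5, an endothelial cadherin. This gave 1511 cells, 11.9% of the 12744 E9.5 cells kept and part of 24099 cells kept in the whole series. They were set beside 4211 reference cells of the same library, which had at least 2 UMIs of the mesenchymal transcription factors Twist1 and Prrx1 together and no UMI of Sox10, Epcam or Cdh5.

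The study made 2 single-cell RNA sequencing libraries from untreated K14Cre;R26mT/mG embryos, in which a keratin 14 promoter drives Cre recombinase and Cre turns the reporter from membrane tdTomato to membrane GFP, marking epithelium for good. The mT/mG mice were of C57BL/6J background. The K14Cre line, of mixed background when acquired, had been crossed to them for over 6 generations. The E9.5 library pooled mandibular arches of 8 embryos of 1 litter, with epithelium and mesenchyme and no sorting. The E12.0 library pooled GFP-positive epithelial cells, sorted by FACS, from 6 embryos of another litter. No embryo can be told from another by the labels, so each stage is 1 sample and no difference below has a replicate check.

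Neural crest cells arise at the border of the neural plate, leave the neural tube by an epithelial to mesenchymal transition and migrate into the pharyngeal arches. There they form ectomesenchyme, the source of the facial skeleton and connective tissue, and they also form glia, sensory neurons and pigment cells. Sox10 is a SoxE transcription factor of migrating crest that stays on in glia and melanoblasts and is switched off as cranial crest turns into ectomesenchyme, when Dlx, Msx and Hand factors pattern the arch.

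Sox10 lies on chromosome 15 at 79154908 to 79165240 on the minus strand of GRCm38 and was counted at 17.6 CPM (UMIs of a gene per 1000000 UMIs of the group) over all kept E9.5 cells, with a 95% Poisson interval of 16.96 to 18.2. Intervals here and below cover counting error only. Of the Sox10-positive cells 1035 held 1 Sox10 UMI, 293 held 2 and 183 held 3 or more, with 8 as the highest number in any cell. They were deeper than the reference, at a median of 17043 against 14469 UMIs, and the cells with 3 or more Sox10 UMIs were deeper again at 19204. When every cell was thinned to 5000 UMIs, Sox10 was still seen in 40.1% of the Sox10-positive cells that were deep enough, so most of these cells sit near the limit of detection for this gene.

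Sox10 detection was far from even across the arch. A Sox10 UMI was found in 25.7% of the 5669 cells with the mesenchymal rule regardless of Sox10, in 4.54% of 3528 epithelial cells (Epcam of 2 or more) and in 3.38% of 237 endothelial cells (Cdh5 of 2 or more), which should lack the gene. Median depths were 15200, 13176 and 14499 UMIs. At 5000 UMIs per cell the shares were 11.2% (95% exact interval 10.3 to 12.1) in mesenchyme, 1.62% (1.22 to 2.10) in epithelium and 1.29% (0.266 to 3.72) in endothelium, after 713, 130 and 4 shallower cells were left out. The intervals of the epithelial and endothelial shares overlap, and these shares serve as the background level. Whether they come from free RNA, doublets or the cells themselves was not tested. Within mesenchyme, cells with a UMI of Hand2, a factor of the ventral arch, reached 4.29% (3.04 to 5.86), against 12.7% (11.7 to 13.7) for cells without it.

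**Figure D1:**
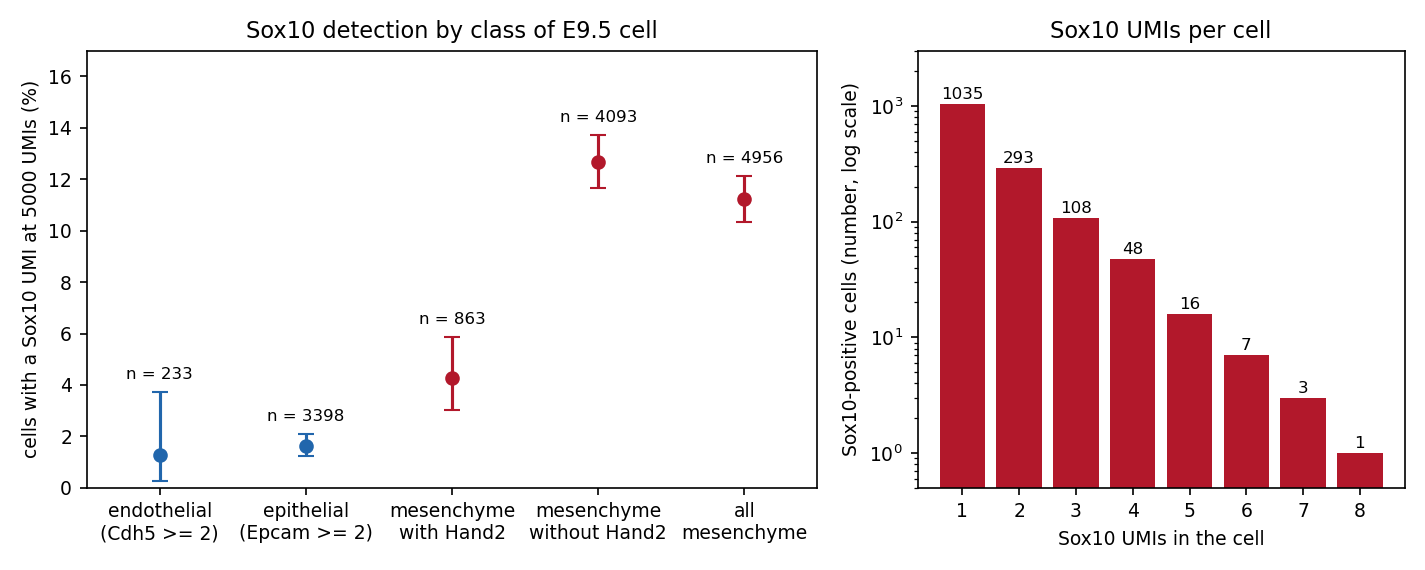
Left, share of E9.5 cells with a Sox10 UMI after each cell was thinned to 5000 UMIs, with exact 95% binomial intervals and the number of cells; blue marks endothelial and epithelial cells and red marks classes of mesenchyme. Right, number of Sox10-positive cells (log scale) by Sox10 UMIs in the cell. Mesenchyme without Hand2 stands at 12.7%, above mesenchyme with Hand2 at 4.29%, and 1035 of the cells carry 1 Sox10 UMI.

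The name neural crest was checked against marker genes. Of the Sox10-positive cells, 96.5% also met the mesenchymal cutoff on Twist1 and Prrx1, and Twist1 stood at 731 CPM against 671 CPM in the reference, which was itself chosen by Twist1 and Prrx1. Tfap2b, Tfap2a, Ets1 and Sox9 were all present, but in the reference too. Foxd3, the forkhead factor of premigratory and early migrating crest, had 44 UMIs in the 1511 cells (1.73 CPM), and Ednrb, an endothelin receptor of crest that forms pigment cells and enteric neurons, had 54. The Sox10-positive cells are thus chiefly cells with mesenchymal transcripts and a low Sox10 level, and they are called here by the rule that chose them.

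Other Sox10-expressing lineages were nearly absent. The 8 melanoblast genes summed to 4.95 CPM, with Tyr, Tyrp1, Mlana and Gpr143 at 0 UMIs, and Mitf, their master regulator, at 2.08 CPM as the most abundant. The 7 otic and placodal genes summed to 4.13 CPM, led by Gata3 at 2.00 CPM, and the 6 neural tube genes to 0.393 CPM. Among 17 neuronal genes the sum was 18.0 CPM against 27.5 CPM in the reference, with Neurod4 and Tlx3 among those at 0 UMIs and Elavl4 the most abundant at 5.46 CPM. Isl1, which is not confined to neurons, gave 4.44 and 18.5 CPM of these sums. The other neuronal genes together were thus not lower in Sox10-positive cells. Hox genes, which the first arch lacks, were at 0.982 CPM over 10 genes, against 4.43 CPM in the reference, and Hoxa2 had no UMI, where 3 counts would be 0.118 CPM.

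A small set did not carry the mesenchymal transcripts. In 53 of the 1511 cells Twist1 and Prrx1 summed to 0 or 1 UMI. These were shallow, with a median of 3825 UMIs and 1452 genes, and 27 of them lay in cluster 4, a cluster with a median of 3524 UMIs. The embryonic globin gene Hbb-y stood at 10344 CPM in them, against 465 CPM in the reference. This came from few cells, since 2 of the 53 exceeded 2000 CPM over 8 erythroid genes and the median of the 53 was 117 CPM, against 133 CPM in the reference. The 7 mesoderm genes reached 219 CPM there against 50.2 CPM in the reference. What part such RNA has in these cells was not tested.

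Cells just outside the rule differed by which limit kept them out. Another 232 kept cells had Sox10 and exactly 1 Epcam UMI. Their Sox10 level was 83.9 CPM and their Twist1 level 712 CPM, next to 89.9 and 731 CPM inside. With 2 or more Epcam UMIs there were 160 such cells, of which 35.6% were called doublets and in which Twist1 was 309.5 CPM. Cdh5 alone kept out 40 cells and both genes together 7. The limit of 5500 genes removed 126 cells that met the rule, at a median of 34594.5 UMIs and with 26.2% called doublets, and the mitochondrial limit removed 7. Of the 1511 Sox10-positive cells 3.31% were called doublets, against 3.13% of the reference, and they were retained. The E9.5 and E12.0 libraries share 51 cell barcodes, 4 of which are kept in both and Sox10-positive at E9.5.

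To see where the Sox10-positive cells lie among all E9.5 cells, the 12744 kept cells were clustered without Sox10 or any gene of the lists used below. Of 19 clusters, those numbered 1 and 2 held 1225 of the Sox10-positive cells, 81.1% of them, and 5 clusters held none. The 4 clusters with at least 500 CPM of Twist1 together held 95.3% of the Sox10-positive cells and 82.8% of the reference. Even in cluster 2 only 40.7% of the cells had a Sox10 UMI, 17.3% at 5000 UMIs (15.6 to 19.2). In cluster 1 the thinned share was 12.3% (11.002 to 13.7) and in cluster 8, which had the most Dlx5 at 179 CPM, it was 4.67% (3.23 to 6.49). Sox10 was itself the leading gene of cluster 2, at 42.2 CPM, with Tfap2b and Plcg2 also among its leading genes, although none of these entered the clustering. In every cluster that held Sox10-positive cells, most cells had no counted Sox10 UMI. At this depth such cells are not shown to lack the transcript.

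**Figure D2:**
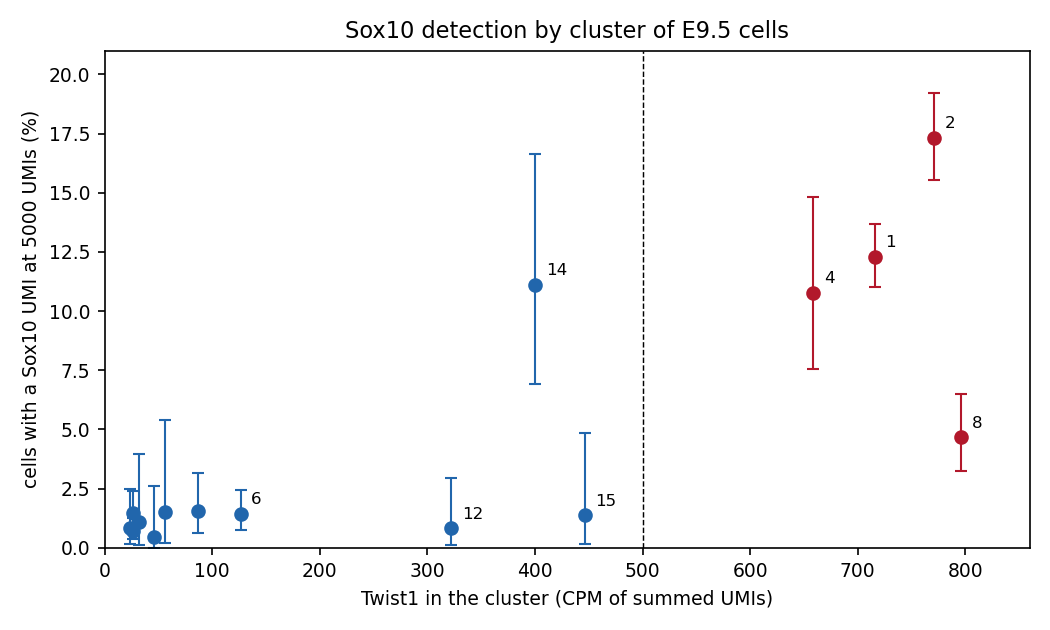
Share of cells with a Sox10 UMI at 5000 UMIs per cell (y axis, percent, exact 95% binomial intervals) against the Twist1 level of the cluster (x axis, CPM), for the clusters with at least 100 cells of that depth; red marks the 4 clusters past 500 CPM, shown by the dashed line. Clusters 2, 1 and 4 stand at 17.3%, 12.3% and 10.8%, cluster 8 at 4.67%, and cluster 14, 90.1% of whose cells were called doublets, at 11.1%.

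Across all genes the difference between Sox10-positive and reference cells was small. Genes were counted as differing when the ratio of their CPM, with 5 CPM added to each side, was at least 2, and 7529 genes reached 10 CPM in either group. Of these 21 differed in either direction (0.279%). In Sox10-positive cells 2 were higher (0.0266%), namely Sox10 itself, which the rule fixed, and Phactr1. A further 19 were lower (0.252%). At a ratio of 1.5 the counts were 19 higher (0.252%) and 73 lower (0.970%). A gene could reach the floor of 10 CPM through either group, and 14 of the 19 genes lower by 2, 37 of the 73 lower by 1.5 and 6 of the 19 higher by 1.5 reached it only in the group where they were higher, which favours a call in that direction. The numbers of higher and lower genes are therefore not compared. The median log2 fold over the 7529 genes was 0.01. With 1 library these are descriptions by size, and since the rule chose cells by their own counts they carry no test.

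**Figure D3:**
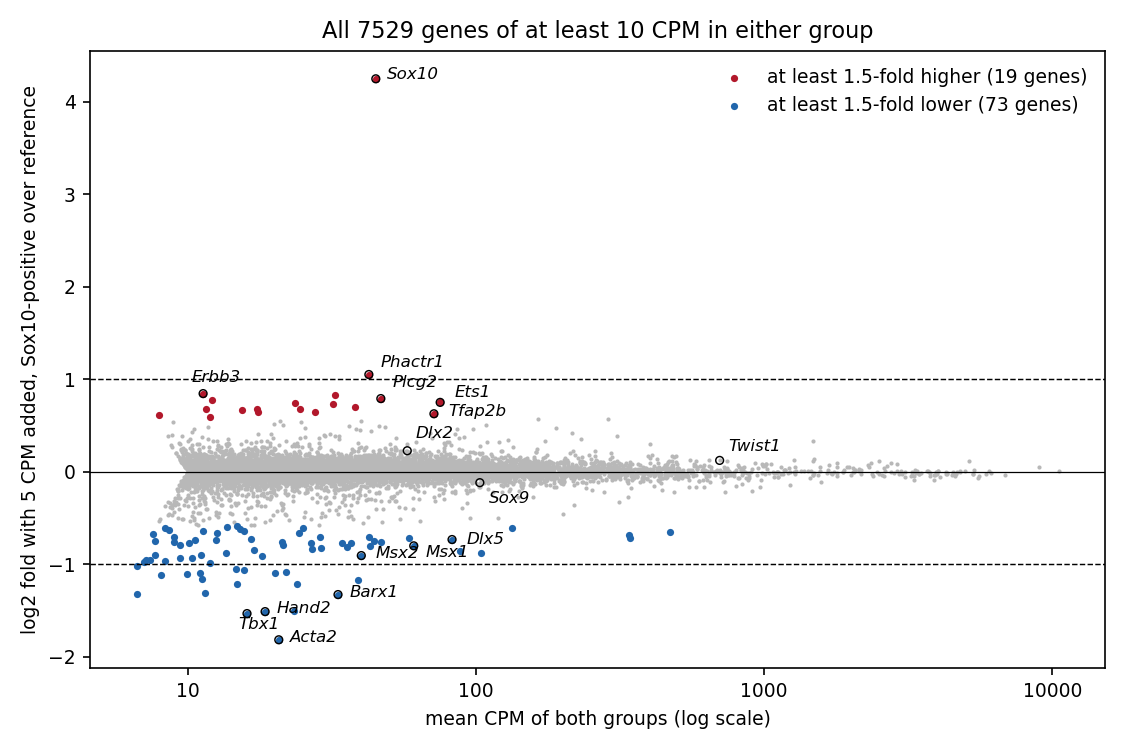
Log2 fold with 5 CPM added (y axis, Sox10-positive over reference) against the mean CPM of both groups (x axis, log scale) for 7529 genes; dashed lines mark a fold of 2. Apart from Sox10, Phactr1 at a log2 fold of 1.05 is the single gene above the upper dashed line, and the genes below the lower one reach -1.82 for Acta2.

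Phactr1, which encodes a regulator of protein phosphatase 1 that binds actin, lies on chromosome 13 at 42680623 to 43138526 and had the highest fold with 5 CPM added after Sox10 among the genes counted. It stood at 59.1 CPM (56.2 to 62.2) in Sox10-positive cells and 26.0 CPM (24.7 to 27.3) in the reference, or a log2 ratio of 1.19 (1.08 to 1.29). Its level was 52.8 CPM in cells with 1 Sox10 UMI, 64.9 CPM with 2 and 79.8 CPM with 3 or more, so it was higher the more Sox10 the cell held. Endothelial and epithelial cells had 3.88 and 7.01 CPM. At 5000 UMIs a Phactr1 UMI was seen in 24.5% of Sox10-positive cells (22.3 to 26.8), 11.6% of reference cells (10.6 to 12.7) and 0.858% of endothelial cells, against 55.5%, 28.3% and 6.01% of the same cells before thinning. Within mesenchyme, 18.3% of cells with Phactr1 had Sox10 and 9.94% of those without it did, at that depth. Its relatives Phactr2 and Phactr4 differed little, with log2 ratios of 0.03 (-0.11 to 0.17) and 0.09 (-0.05 to 0.22).

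Plcg2 encodes a phospholipase C that acts downstream of receptor tyrosine kinases and is best known in blood cells. Its gene is on chromosome 8 at 117498291 to 117635142. It stood at 60.6 CPM (57.6 to 63.7) against 33.0 CPM (31.5 to 34.5), or a log2 ratio of 0.88 (0.78 to 0.98), and went from 53.9 CPM with 1 Sox10 UMI to 66.9 and 82.3 CPM with 2 and with 3 or more. Of the 10 phospholipase genes listed, 4 were counted and Plcg2, one of the genes named with the rule, alone passed a ratio of 1.5, beside 0.252% of all genes. Plcb4 came next with a log2 ratio of 0.55 (0.45 to 0.65), whereas Plcg1, the widely expressed relative, had -0.05 (-0.17 to 0.07).

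Tfap2b, an AP-2 transcription factor of the neural plate border and crest, lies on chromosome 1 at 19208914 to 19238576. It had 87.9 CPM (84.3 to 91.6) against 55.2 CPM (53.3 to 57.1), or a log2 ratio of 0.67 (0.59 to 0.75). It was higher in each further Sox10 class, with 78.3, 93.0 and 125 CPM. It was present in 63.7% of Sox10-positive cells but also in 42.6% of the reference, so it marks both. After thinning these shares were 33.0% (30.6 to 35.5) and 23.0% (21.6 to 24.4), against 3.004% in endothelial cells. Its relative Tfap2a had a smaller difference, with a log2 ratio of 0.51 (0.40 to 0.62) and nearly level values of 45.5, 47.8 and 48.4 CPM over the Sox10 classes. Tfap2c, Tfap2d and Tfap2e were under the 10 CPM floor.

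Genes of crest specification and early glia leaned towards the Sox10-positive cells without large folds. Of 16 specification factors 10 were counted, with a median log2 fold of 0.44, beside 0.01 over all genes. None passed a ratio of 2, and Ets1 and Tfap2b passed 1.5 (0.252% of all genes counted). In the clusters with at least 500 CPM of Twist1 the log2 ratio of Tfap2b was 0.48 and that of Ets1 0.71. In cells with a Y-linked and no Xist UMI they were 0.32 and 0.64. Both of these values for Tfap2b are under a fold of 1.5. Ets1, an ETS factor of cranial crest and of endothelium, had 95.5 CPM (91.8 to 99.4) against 54.8 CPM (52.9 to 56.8). With 3 or more Sox10 UMIs it stood at 153 CPM, and endothelial cells had 237 CPM. Sox5, Zeb2 and Mef2c had log2 ratios of 0.53, 0.45 and 0.49. The exceptions were Sox9, the SoxE factor of the chondrogenic lineage, with a log2 ratio of -0.12 (-0.19 to -0.06) and 79.5 CPM in cells with 3 or more Sox10 UMIs against 108 CPM in the reference, and Snai2, a repressor of epithelial genes, with -0.52 (-0.70 to -0.34). Sox9 was at 0.051 against all other cells without Sox10, Epcam and Cdh5, and Snai2 at 0.76 in the 53 cells low in Twist1 and Prrx1. In those 53 cells Sox5 and Mef2c were at -0.43 and -1.18, while Zeb2 was above 0.

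Pax3 and Foxd3 lay under the 10 CPM floor but had some of the steepest differences among the crest factors. Pax3, a paired box factor of the dorsal neural tube and early crest, had 9.27 CPM (8.13 to 10.5) against 3.58 CPM (3.11 to 4.10), and 20.1 CPM in cells with 3 or more Sox10 UMIs. Foxd3 had 1.73 CPM (1.26 to 2.32) against 0.208 CPM (0.107 to 0.362), or a log2 ratio of 3.06 (2.11 to 4.12), and 5.66 CPM with 3 or more. Its 44 UMIs lay in 2.58% of the Sox10-positive cells. At 5000 UMIs the shares were 1.41% of Sox10-positive cells and 0.113% of the reference.

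Among 14 glial genes 8 were counted, 7 of them above the reference and 3 by 1.5 or more, with a median log2 fold of 0.43. Over all genes 4190 of 7529 were above the reference and 19 by 1.5 or more (0.252%). Erbb3, the neuregulin receptor subunit on which Schwann cell precursors depend, lies on chromosome 10 at 128567523 to 128589652. It had 15.96 CPM (14.4 to 17.6) against 6.67 CPM (6.03 to 7.38), or a log2 ratio of 1.26 (1.05 to 1.46). Its level went from 12.3 to 16.9 and 31.7 CPM over the Sox10 classes, although epithelial cells had 20.5 CPM. Itga4, an integrin subunit of migrating crest, had 10.7 CPM (9.46 to 12.0) against 5.26 CPM (4.68 to 5.88), and Cdh6, a crest cadherin, 100.4 against 71.4 CPM. Erbb3, Itga4 and Sox2 reached the floor of 10 CPM in Sox10-positive cells only, which favours a value above the reference. The count of 7 and the median of 0.43 rest in part on these genes. Ngfr, the p75 neurotrophin receptor used to isolate crest, was under the floor at 5.27 against 2.40 CPM.

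**Figure D4:**
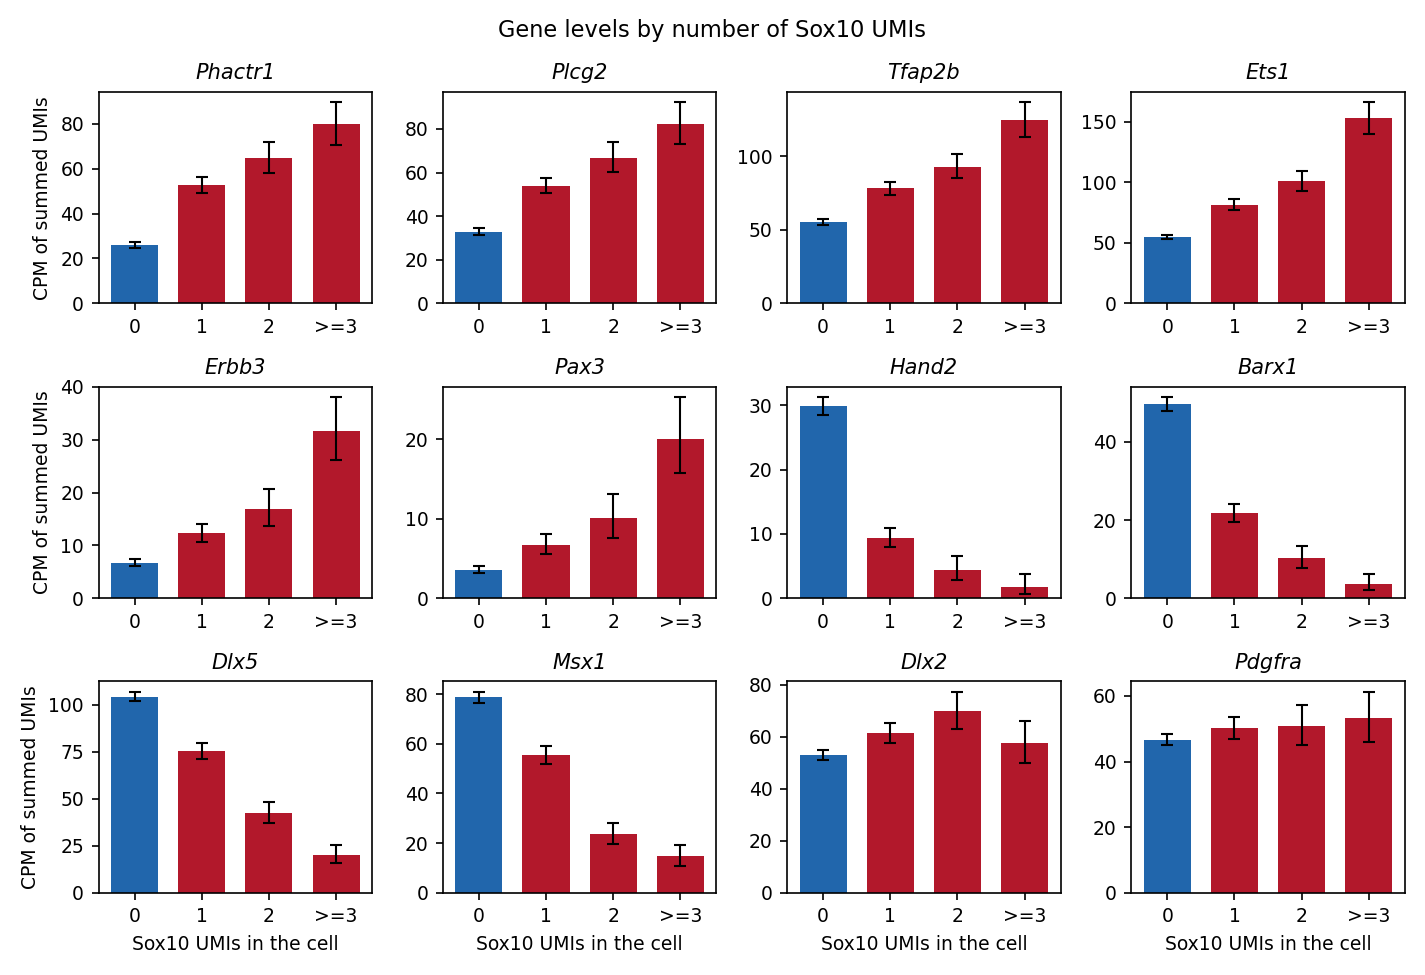
Level of 12 genes (CPM of summed UMIs, y axes from 0, 95% Poisson intervals) in the 4211 reference cells with no Sox10 UMI (blue) and in cells with 1, 2, or 3 and more Sox10 UMIs (red; 1035, 293 and 183 cells). Phactr1, Plcg2, Tfap2b, Ets1, Erbb3 and Pax3 are higher with more Sox10 UMIs, Hand2, Barx1, Dlx5 and Msx1 are lower, and Dlx2 and Pdgfra stay within 46.7 to 70.0 CPM.

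Patterning genes of the arch leaned the other way, and unevenly. Of 25 listed transcription factors and receptors of ectomesenchyme, 12 were counted, 7 below the reference and 5 above it. Over all genes 3339 of 7529 were below the reference. Hand2 and Barx1 were lower by 2 or more (0.252% of all genes counted), 6 were lower by 1.5 (0.970% of all), none was higher by 1.5, and the median log2 fold was -0.53, beside 0.01 over all genes. Hand2 reached the floor of 10 CPM in the reference only, whereas Barx1 reached it in both groups. Hand2, which specifies the ventral arch downstream of endothelin, had 7.23 CPM (6.22 to 8.35) against 29.9 CPM (28.5 to 31.3), or a log2 ratio of -2.05 (-2.28 to -1.83), and 1.70 CPM (0.623 to 3.69) in cells with 3 or more Sox10 UMIs. Barx1, a homeobox factor of proximal arch mesenchyme, had 16.8 CPM (15.2 to 18.5) against 49.7 CPM (47.9 to 51.6), and 3.68 CPM with 3 or more.

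Ebf3, a helix-loop-helix factor and the one gene outside the lists that the naming rule added, had 12.3 CPM (10.9 to 13.7) against 31.6 CPM (30.1 to 33.1), with a UMI in 16.4% against 28.3% of cells.

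The Dlx genes split by pair. Dlx5 and Dlx6, which specify the lower jaw, had log2 ratios of -0.78 (-0.86 to -0.70) and -0.84 (-0.95 to -0.73). Dlx5 went from 75.6 CPM with 1 Sox10 UMI to 42.6 and 20.1 CPM with more, below the 104 CPM of the reference in each class. Dlx1 and Dlx2, which are on along the whole arch, had log2 ratios of 0.13 (0.03 to 0.23) and 0.25 (0.16 to 0.33). The direction of Dlx1 turned in cells with 3 or more Sox10 UMIs, at -0.26, and in the Twist1-rich clusters, at -0.065, and both genes were below 0 in the 53 cells low in Twist1 and Prrx1. Msx1 and Msx2, factors of the distal arch that respond to BMP, had 43.0 against 78.7 CPM and 26.3 against 53.7 CPM, and 14.7 and 9.34 CPM with 3 or more Sox10 UMIs. Among receptors of ectomesenchyme, Pdgfra stood at 50.7 against 46.7 CPM. Ednra, the endothelin receptor, stood at 18.4 against 14.7 CPM, and at 28.3 CPM in cells with 3 or more Sox10 UMIs. Prrx2 had a log2 ratio of -0.34 (-0.38 to -0.30), and Alx1, a factor of the frontonasal side, 0.30 (0.12 to 0.47). Alx1 turned to -0.11 in cells with a Y-linked and no Xist UMI, and to -2.13 in the 53 cells.

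The same split was seen when mesenchyme was sorted by each gene in turn at 5000 UMIs. Sox10 was found in 3.44% of mesenchymal cells with Hand2 (1.94 to 5.61) and 12.0% of those without (11.04 to 12.95). The figures were 6.599% and 13.2% for Dlx5, 4.75% and 12.1% for Barx1, and 12.2% and 10.9% for Dlx2, where the intervals overlap. With Ets1 they were 17.2% and 8.99%, and with Erbb3 22.7% (17.4 to 28.7) and 10.7% (9.80 to 11.6). These cells are those of the comparison above, so this is the same difference seen per cell.

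**Figure D5:**
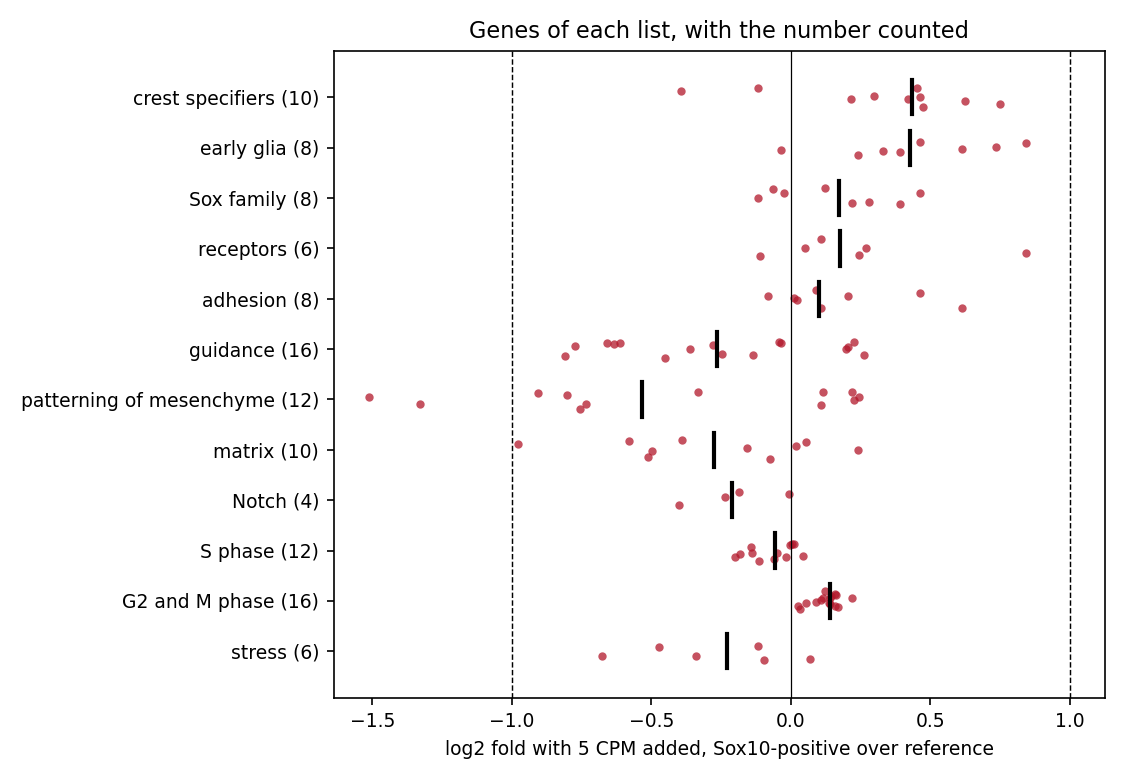
Log2 fold with 5 CPM added (x axis, Sox10-positive over reference) of the counted genes of 12 lists, 1 point a gene, with the median as a black bar and the number counted in brackets; dashed lines mark a fold of 2. Crest specifiers and early glia have medians of 0.44 and 0.43, patterning genes of mesenchyme -0.53 and matrix genes -0.27. Some counted genes reached 10 CPM in only 1 of the groups, which favours a higher value there.

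Matrix, guidance and adhesion genes differed less. Of 11 matrix genes 10 were counted, and Col1a1 alone was lower by 1.5, at 3.105 against 10.96 CPM. It passed the floor of 10 CPM through the reference alone, and its log2 ratio of -1.82 was -0.36 in the 4 Twist1-rich clusters and 2.73 in the 53 cells low in Twist1 and Prrx1. Col3a1 and Fn1 had log2 ratios of -0.58 and -0.53, and -0.34 and -0.026 in the Twist1-rich clusters. Col5a2 and Postn were at 0.06 and 0.03, and at 0.045 and 0.52 in those clusters. In the 53 cells low in Twist1 and Prrx1 Col5a2 was at -1.80 and Postn at 2.85. Of 24 guidance genes 16 were counted and 5 were lower by 1.5, namely Nrp1, Slit2, Unc5c, Epha3 and Epha7, beside 0.970% of all genes. All but Unc5c passed the floor through the reference alone, and Nrp1 and Slit2 had log2 ratios of 1.64 and 1.01 in the 53 cells low in Twist1 and Prrx1. Unc5c, a netrin receptor, had 29.9 against 56.1 CPM, and Nrp1, a semaphorin and VEGF receptor that endothelial cells hold at 139 CPM, 6.13 against 14.01 CPM. Plxna4, a semaphorin coreceptor, and Efna5, an ephrin ligand, were slightly higher with log2 ratios of 0.25 and 0.29. Adhesion genes had a median log2 fold of 0.10 over 8 counted, with Itga4, which reached the floor in Sox10-positive cells only, as the single gene past 1.5 (0.252% of all genes), and Cdh2 and Ncam1 level.

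Other receptors and Sox genes gave small differences. Of 18 receptors 6 were counted and Erbb3 was the one past 1.5, beside 0.252% of all genes, and it reached the floor in Sox10-positive cells only. Erbb2, the kinase with which it pairs, had 13.4 CPM (12.1 to 14.9) against 10.3 CPM, and 20.9 CPM in cells with 3 or more Sox10 UMIs. Erbb4 had 0 UMIs. Of 12 Sox genes other than Sox10, 8 were counted and none passed 1.5, with Sox2 at 10.6 against 6.93 CPM and 112 CPM in epithelium. Sox4 and Sox11, the abundant SoxC genes, had log2 ratios of 0.22 and 0.13, and Sox8, the remaining SoxE gene, 8.53 against 7.45 CPM. Of the genes of axial position, Otx2, a factor of the anterior head, was under the floor and had 4.28 against 6.16 CPM.

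Cell cycle genes were close to level. All 16 genes of G2 and M phase were above the reference, as were 4190 of all 7529 genes, but none by 1.5, with a median log2 fold of 0.14. Top2a, the DNA topoisomerase of dividing cells, had 515 against 461 CPM and 614 CPM in cells with 3 or more Sox10 UMIs. With the reference weighted to the depths of the Sox10-positive cells, its log2 ratio went from 0.16 to 0.047. Aurka, another of the 16, went from 0.096 to -0.0052. The 12 S phase genes had a median of -0.06. Cdkn1c, an imprinted inhibitor of the cell cycle, was the exception among 6 control genes at 61.2 against 115 CPM, although endothelial cells had 509 CPM and epithelial cells 196 CPM. Its log2 ratio of -0.91 was -0.22 in the Twist1-rich clusters, under a fold of 1.5. Of 11 Notch pathway genes 4 were counted, with a median of -0.21 and none past 1.5. Of 10 stress genes 6 were counted, with a median of -0.23, and Fos, which reached the floor in the reference only, was lower by 1.5 (0.970% of all genes) at 4.68 against 10.5 CPM, with a log2 ratio of -1.16 that was -0.47 in the Twist1-rich clusters.

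The 19 genes lower by 2, named here after their values were seen, were Acta2, Tbx1, Hand2, Tagln, Barx1, Fst, Isl1, Tgfb2, Dlk1, Sparc, Tlx1, Pgf, Ttn, Dlx6os1, Nexn, Ebf3, Cgnl1, Gm266 and Plagl1. Acta2 and Tagln, genes of smooth muscle and early heart muscle, had 6.37 against 35.1 CPM and 9.82 against 37.1 CPM. Tbx1, a factor of pharyngeal mesoderm and endoderm, had 5.82 against 26.3 CPM, and Isl1, found in second heart field, endoderm and neurons, 4.44 against 18.5 CPM. Cells of other kinds were unevenly spread. In the reference 288 cells lay in cluster 6, which had 268 CPM of Tbx1, and 177 in cluster 12, which had 146 CPM of Tnnt2, against 25 and 9 Sox10-positive cells. Dlx6os1 is transcribed from the strand opposite Dlx6, and how the counting used strand is not given in the sources used here, so its 10.96 against 29.2 CPM is uncertain.

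When both groups were limited to the 4 Twist1-rich clusters, 1 gene was higher and 5 were lower by 2. The higher gene was Sox10, and the lower ones were Barx1, Hand2, Dlx6os1, Ebf3 and Msx2. This limit was added after the data were seen. There Acta2 had a log2 ratio of -0.28, Tbx1 -0.40 and Isl1 -0.22, whereas Hand2 had -1.87, Barx1 -1.76 and Dlx5 -0.97. Phactr1 had a log2 ratio of 1.01, against 1.19 without this limit, and was no longer higher by 2 once 5 CPM was added. Erbb3 had 1.097, Ets1 0.71 and Plcg2 0.69. Tfap2b went from 0.67 to 0.48, which is under a fold of 1.5.

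Genes of further cell types were summed in the same cells, and the source of their UMIs was not tested. The 8 endothelial genes summed to 54.4 CPM against 71.7 CPM in the reference and 2692 CPM in endothelial cells, with Egfl7 the most abundant at 39.3 CPM. The 10 epithelial genes summed to 59.9 against 99.7 CPM, led by Krt18 at 25.9 CPM, and to 1567 CPM in epithelial cells, and Krt5 was at 0 UMIs. The 7 endoderm genes summed to 3.93 against 10.1 CPM, led by Hhex at 2.24 CPM, and the 7 macrophage genes to 0.511 against 0.467 CPM, led by Csf1r. The 7 mesoderm genes summed to 12.1 against 50.2 CPM, led by Tbx1, with Myog at 0 UMIs. Erythroid genes summed to 1120 against 994 CPM, led by Hbb-y, but the median cell had 144 against 133 CPM, and 5 Sox10-positive and 12 reference cells passed 2000 CPM. The 1092 CPM of Hbb-y in cells with 3 or more Sox10 UMIs thus came with 1 such cell among 183.

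With a higher cutoff on Sox10 more genes passed a ratio of 2 in both directions. The 183 cells with 3 or more UMIs had 25 genes higher by 2 (0.327% of 7656) and 59 lower (0.771%). Here too a gene could reach the floor of 10 CPM through 1 group alone, which favours a call in that direction. The 25 include Sox10, fixed by the rule, and Hbb-y, whose level came with 1 cell over 2000 CPM of erythroid genes. All 19 genes lower in the full set were among the 59, and 17 of the 19 genes higher by 1.5 were among the 25. Twist1 stood at 672 CPM and Prrx1 at 176 CPM in these cells, against 671 and 301 CPM in the reference, whose rule used both genes. Genes beyond the lists that were higher, named after their values were seen, included Dab1, a Reelin adaptor, at 39.6 against 12.6 CPM. Foxo1 stood at 60.0 against 21.8 CPM. The Wnt receptor Fzd7 had 71.0 against 27.7 CPM, and Lgi4, a ligand made by glia, had 12.4 against 2.37 CPM. Lower genes beyond the lists included Wnt5a at 25.2 against 77.0 CPM, Mab21l2 at 1.13 against 19.0 CPM and Meis1 at 1.13 against 12.7 CPM. Lgi4 reached the floor only in the cells with 3 or more Sox10 UMIs. Mab21l2 and Meis1 reached it only in the reference, with 4 UMIs each in the 183 cells. Because these cells were chosen by their Sox10 counts and compared with the same reference, the counts do not stand as a separate result.

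Embryos of either sex could be separated in part by Xist and 4 Y-linked genes. Xist without a Y-linked UMI was seen in 58.1% of Sox10-positive and 43.5% of reference cells, and a Y-linked UMI without Xist in 19.1% and 22.2%. Both were seen in 9.33% and 8.83%, cells whose sex is unclear. At 5000 UMIs, Sox10 was found in 13.2% (11.9 to 14.5) of mesenchymal cells with Xist alone and 8.998% (7.43 to 10.8) of those with Y-linked UMIs alone. How many embryos of each sex the pool held, and whether the litter mates differed in stage, cannot be told apart here. Within cells with Xist alone Phactr1 had a log2 ratio of 1.25 and Hand2 -2.25, and within cells with Y-linked UMIs alone 0.99 and -1.94. Erbb3 had 1.34 and 0.67, and Tfap2b 0.78 and 0.32, so both were above 0 in either set but smaller in the second. That difference was not tested.

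For the genes below, the signs were the same once depth was made equal. Some genes near 0 turned, such as Aurka, a gene of G2 and M phase, from 0.096 to -0.038 after thinning. With every cell thinned to 5000 UMIs the log2 ratios were 1.23 for Phactr1, 0.94 for Plcg2, 0.61 for Tfap2b, 0.89 for Ets1, 1.08 for Erbb3, -2.12 for Hand2, -1.49 for Barx1 and -0.83 for Dlx5. With the reference weighted to the depths of the Sox10-positive cells they were 1.23, 0.87, 0.64, 0.79, 1.26, -1.96, -1.66 and -0.86 for the same genes.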

How the data were processed

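Mouse 10x 3' v3 libraries of 2 stages were used, of which the E9.5 library gave all comparisons. The authors aligned reads to GRCm38 with Cell Ranger (version 2.0.0 in the submitters' processing notes, 6.1.2 in the E9.5 file header and 3.1.0 in the E12.0 header) and deposited raw UMI counts per gene for barcodes already selected as cells. The E9.5 counts held 14293 barcodes and 208540526 UMIs. Cells with 200 to 5500 genes and at most 10% mitochondrial UMIs were kept, leaving 12744 cells with 166191431 UMIs and a median of 13460.5.

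UMIs were summed over the cells of a group and scaled to CPM, with exact 95% Poisson intervals, exact binomial intervals for shares and conditional binomial intervals for ratios (scipy 1.17.1). No test was made, since each stage is 1 library and cells are not replicates. Genes with 10 CPM in either group were called at a fold of 2 after adding 5 CPM. Thinning drew 5000 UMIs per cell once, and shallower cells were left out. Doublets were scored with Scrublet in scanpy 1.11.5, whose threshold of 0.172 called 508 kept cells, and were retained. Clusters came from log-normalized values of 2000 variable genes without Sox10 and the listed genes, 30 components and leidenalg 0.10.2 at a resolution of 0.8, and are given by number only. Summing and calling were tested on simulated data. Gene positions are those of the GENCODE annotation of GRCm38. Sequences were not used. Some members of the lists enter the counts and sums but are not reported here by name.

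Named genes were Sox10, Phactr1, Plcg2, Tfap2b, the members of the lists, and the 15 most raised and 10 most lowered called genes with a UMI in 25% of the cells of the higher group, which added Ebf3 alone. The rule, the lists and the alternatives were chosen with earlier results of these data known.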

Additional observations from a re-analysis of the deposited data

Results flagged for a closer look

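Sox10 UMIs were also counted in the E12.0 library, which entered no comparison and holds epithelial cells sorted for GFP. A Sox10 UMI was found in 88 of 11355 kept cells, 0.775% with an exact 95% interval of 0.622 to 0.954%, above the 0.0264% that 3 counts would give. The library held 108 Sox10 UMIs, or 1.39 CPM, and 17 cells had 2 or more UMIs, with 4 as the highest. Only 1 of the cells lacked Epcam and Cdh5 and so met the rule used at E9.5. The kept E12.0 cells had a median of 6349 UMIs, against 13460.5 at E9.5, so the shares of both libraries are not on a common depth. Their source was not tested.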

How the results depend on the processing

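No paired analysis was possible because each stage has 1 library and the labels carry no replicate numbers. The counts of genes higher and lower by 2 (2 and 19), of crest and glial genes higher (0) and of patterning and matrix genes lower (2) moved with the cutoffs, and are given in that order. With at least 2 Sox10 UMIs they were 9, 49, 3 and 7, with at least 3 they were 25, 59, 6 and 8, and in the 53 cells with 0 or 1 Twist1 and Prrx1 UMI 256, 273, 2 and 11. In those 53 cells 3 counts equal 8.74 CPM, near the floor of 10 CPM, so a few UMIs can decide a call. With 1 CPM added the counts of genes were 4, 39, 1 and 4, and with a fold of 1.5 they were 19, 73, 5 and 7. A fold of 3 left 1 gene higher, 1 lower and 0 patterning or matrix genes. A reference with at least 4 Twist1 and Prrx1 UMIs gave 5 higher and 7 lower, cells with Y-linked UMIs alone 1 and 12, and the Twist1-rich clusters, chosen after seeing the data, 1 and 5. The count of lower genes alone moved with a reference of all other cells without Sox10, Epcam and Cdh5 (66), after thinning (31), with the reweighted reference (12), in cells with Xist alone (35) and with a UMI required in 15% of the higher group (6). Leaving out cells with over 2000 CPM of erythroid genes, also chosen after seeing the data, kept every one of these counts within 1.5 times.

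Of 147 named genes, 48 had the same sign in every setting. Of 2348 gene values under alternatives, 1591 stayed within the counting interval of the main value and 740 moved beyond it. The remaining 17 changed sign for a called gene. Of these 13 were in the 53 cells low in Twist1 and Prrx1, where the log2 ratio was 0.034 for Tgfb2, 0.14 for Plagl1, 0.72 for Tagln, 1.26 for Cgnl1, 1.67 for Sparc, 1.32 for Fst, 1.24 for Isl1, 2.31 for Pgf, 1.09 for Dlk1, 1.86 for Gm266, 2.07 for Tbx1, 0.66 for Acta2 and 2.01 for Tlx1. The other 4 were in the Twist1-rich clusters, with 0.55 for Ttn, 0.16 for Cgnl1, 0.24 for Sparc and 0.043 for Fst. The causes were not tested. Phactr1, Tfap2b, Ets1, Hand2, Barx1, Dlx5 and Msx1 kept their sign under every alternative that gave a value. Plcg2 and Erbb3 were above 0 in all but those 53 cells, where their log2 ratios of -1.50 and -0.20 rested on 4 and 2 UMIs. The 13 sign changes in the same 53 cells rested on 4 UMIs for Plagl1, 8 for Tgfb2 and 10 for Fst, up to 61 for Sparc.

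The share of Sox10-positive cells, 11.9%, was 5.39% at 5000 UMIs and 14.6% among cells with Xist alone. The number of clusters holding 80% of them, 2, was 1 at a resolution of 0.3, 4 at 1.5 and 5 with the listed genes kept. Sox10 is near the limit of detection at this depth, so reference cells may carry Sox10 that was not counted, and ratios are between cells with and without a counted UMI.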
